A study of Mus musculus with 12 samples.

Results

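The subject is the spleen T cells of NOD.H2h4 mice, measured on 2 of the 12 arrays of the series, replicates 1 and 2 of this strain, called array 1 and array 2 here. They were chosen by their titles alone. Each array was hybridised with RNA of NOD.H2h4 spleen T cells in the Cy5 channel and RNA of spleen T cells of B6 mice in the Cy3 channel, so each value is a ratio of NOD.H2h4 to B6. The other T cell arrays, also 2 a group and also read against B6, hold spleen T cells of NOD mice, of B6.NODIdd1,5 mice, which are B6 mice with NOD intervals at Idd1 and Idd5, of B6 recipients of NOD bone marrow (NODtoB6) and of NOD recipients of B6 bone marrow (B6toNOD). A further 2 arrays hold kidney cells of B6.NODIdd1,5 mice and entered only the estimate of the spread. The sample titles name no treatment apart from the marrow transfer. The sources used here do not give age, sex, the way the T cells were isolated, or whether the 2 arrays came from separate mice. The p-values below thus measure only the spread between the 2 arrays of a group, pooled over the 6 groups, and that spread may be technical.

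NOD mice develop autoimmune diabetes spontaneously, and the strongest inherited contribution comes from their major histocompatibility complex (MHC), which lies in the Idd1 interval on chromosome 17. NOD.H2h4 mice carry the H2h4 haplotype of the MHC on the NOD background, are protected from diabetes and are used as a model of autoimmune thyroiditis. MHC class II molecules present peptides to CD4 T cells and are made mainly by B cells, dendritic cells and macrophages, whereas class I molecules, which present peptides cut by the proteasome to CD8 T cells, are made by nearly all cells. A comparison of NOD.H2h4 with B6 therefore takes in both the MHC haplotype and the rest of the NOD genome, and the comparison with NOD addresses the MHC and what is linked to it.

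The arrays listed 20736 probes, of which 13033 carried exactly 1 gene symbol, and 8548 genes had a value on both NOD.H2h4 arrays. As deposited, 91.3% and 87.8% of the probe values lay below 0, with array medians of -0.865 and -0.751, so each array was centred on its median before the test and all values below are centred log2 ratios unless stated. On that scale 1 unit is a doubling or a halving, errors are standard errors of the fit with n = 2 arrays, and a gene is called higher or lower where its adjusted p (limma, Benjamini-Hochberg) is under 0.05. The 2 arrays correlated across genes with Pearson's r = 0.735 and Spearman's rho = 0.836, where genes are not independent replicates. A ratio gives no level, so the T cell identity of the RNA could not be checked from its defining markers. In bulk RNA, fewer cells of a type and less RNA per cell cannot be told apart.

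Against B6, 1266 genes (14.8% of those tested) were higher and 1439 (16.8%) were lower in NOD.H2h4 T cells. The lower genes reached further: 577 were lower by more than 1 log2 unit and 112 by more than 2, against 209 and 7 genes that were higher by as much. The higher genes also agreed more closely between arrays, with a median SD of 0.0443 over the 2 arrays against 0.164 for the lower genes. Spot brightness is not analysed here, and its part in that difference was not tested. With the deposited values taken uncentred, 91 genes were higher and 6012 lower, and of the 1266 higher genes 397 (31.4%) had a ratio above 0 before centring. The higher genes below are thus higher relative to the middle of the array. With 1 array left out, counts fell to 629 higher (7.3%) and 670 lower (7.78%) without array 1 and to 618 higher (7.18%) and 655 lower (7.61%) without array 2, where the single array left was assumed to vary like the other groups. Where the call of a gene named below did not pass in one of these fits, this is stated beside it.

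**Figure D1:**
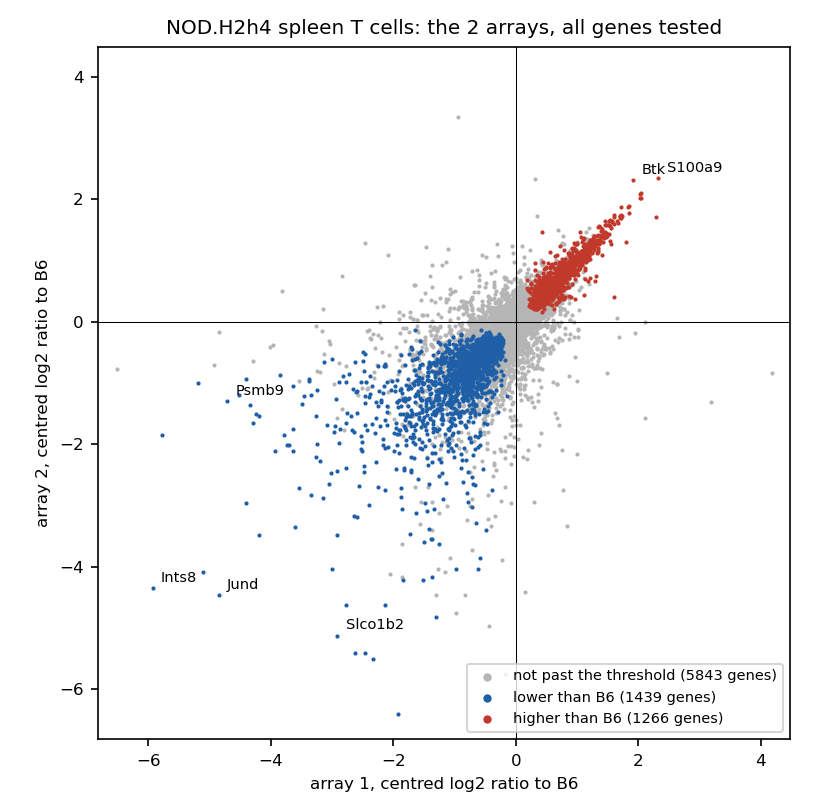
Centred log2 ratio to B6 of each of the 8548 genes tested, array 1 on the horizontal and array 2 on the vertical axis, 1 point a gene. The 1266 higher genes (red) form a narrow band along the diagonal, whereas the 1439 lower genes (blue) reach further from 0 and scatter more between arrays.

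Class II genes of the MHC were below B6 on both arrays. H2-Aa, the alpha chain of the class II molecule I-A, read -1.79 on array 1 and -1.56 on array 2 (mean -1.67 ± 0.24, adjusted p = 0.00275), which is 3.19-fold lower than in B6. H2-DMa, a chain of the chaperone that loads peptides onto class II molecules, read -0.95 on array 1 and -0.51 on array 2 (mean -0.73 ± 0.13, adjusted p = 0.00531) and did not pass without array 1 (adjusted p = 0.0896 without array 1). H2-Eb1, the beta chain of I-E, read -0.45 on array 1 and -0.41 on array 2 and missed the threshold (adjusted p = 0.086). These 3 were the tested members of 16 listed genes of class II and its loading, and H2-Ab1 was not among them. In NOD T cells the same genes had means of -0.38, -0.06 and 0.37, and for none of them did NOD.H2h4 minus NOD pass the threshold (adjusted p = 0.059, 0.0632 and 0.0706). Markers of B cells, which make class II, had a median of -1.11 over 8 tested of 20 listed genes. Of these, 3 were lower (37.5%, against 16.8% of all genes) and 1 higher (12.5%, against 14.8%). No gene of the 5 tested dendritic cell markers passed (median -0.571). The part of such cells in the class II values was not tested, and binding of related MHC sequences to these cDNA probes was not tested either.

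The genes around the class II genes were low as well. Taken in chromosome order, the 9 measured genes from Rps18 to H2-Eb1 all lay below B6 on both arrays. Of these, 7 were called lower, where 16.8% of all genes were. Rxrb, a retinoid X receptor, read -1.08 on array 1 and -0.87 on array 2 (mean -0.98 ± 0.14, adjusted p = 0.00208). Brd2, a bromodomain protein that binds acetylated chromatin, read -1.06 on array 1 and -1.22 on array 2 (mean -1.14 ± 0.093, adjusted p = 0.000226). For both of these NOD.H2h4 was also below NOD, by -0.91 ± 0.20 (adjusted p = 0.0299) and -0.93 ± 0.13 (adjusted p = 0.0075). Psmb9, a catalytic subunit of the immunoproteasome, was low on both arrays but with very different values, -4.71 on array 1 and -1.30 on array 2 (mean -3.005 ± 0.64, adjusted p = 0.0106). Its neighbour Psmb8, another immunoproteasome subunit, read -1.48 on array 1 and -1.43 on array 2 without passing (adjusted p = 0.0803). The B6toNOD arrays of Psmb8, which enter the pooled spread, read 2.70 and -0.25. Psmb8 is named here after its values were seen. Tap2, a subunit of the peptide transporter, differed little, with -0.24 on array 1 and -0.25 on array 2 (mean -0.25 ± 0.077, adjusted p = 0.044), and neither it nor the ribosomal protein gene Rps18, at -0.37 ± 0.074, passed when an array was left out (Tap2 adjusted p = 0.219 without array 1 and 0.25 without array 2, Rps18 0.0683 and 0.0893). Of the 3 probes of Rps18, 1 lay just above 0 on both arrays. On the NOD arrays, Rps18, Rxrb, Brd2, Psmb9, Psmb8, Tap2 and H2-Aa were below 0 too, though nearer to it, and H2-Eb1 was above it. The run was noticed in the data, its ends were set by where values above 0 begin, and it has no test.

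Of the class I and peptide loading genes, 10 of 29 listed were tested, 3 were lower (30%, against 16.8% of all genes) and 1 was higher (10%, against 14.8%). Lower members were Psmb9, Tap2 and Psme1, a subunit of the proteasome activator PA28. Psme1 read -0.87 on array 1 and -0.89 on array 2 (mean -0.88 ± 0.10, adjusted p = 0.00079), from 2 probes. The higher member was Calr, calreticulin, a chaperone of new class I molecules, at 0.58 ± 0.078 (adjusted p = 0.00142), whose ratio was below 0 as deposited. Against the mean of the other 4 spleen T cell groups, 5 of 9 tested members were lower and 1 was higher, beside 13.6% lower and 13.3% higher over all 6960 genes tested there. The list's medians were -0.162 in NOD, 0.129 in B6.NODIdd1,5, 0.331 in NODtoB6 and 0.78 in B6toNOD. Psme1 differed by -1.17 ± 0.11 (adjusted p = 0.000365) and Psmb9 by -3.44 ± 0.71 (adjusted p = 0.0109).

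The remaining genes of the MHC region were called at close to the rate of all genes, with 6 higher and 6 lower among 32 tested (18.8% each, against 14.8% and 16.8% of all genes), 20 not past the threshold and a median of -0.0135. Without array 1, 3 were higher and 3 lower, and without array 2, 3 and 4. Agpat1, which makes phosphatidic acid, read 1.26 on array 1 and 1.20 on array 2 (mean 1.23 ± 0.094, adjusted p = 0.000187) and exceeded NOD by 1.04 ± 0.13 (adjusted p = 0.00564). Its neighbour among the measured genes, Rnf5, a ubiquitin ligase, was higher at 0.37 ± 0.089 (adjusted p = 0.0166) but did not pass with 1 array (adjusted p = 0.103 without array 1 and 0.156 without array 2), and was below 0 as deposited. Lsm2, a component of the spliceosome, read 1.01 on array 1 and 1.01 on array 2 (mean 1.01 ± 0.12, adjusted p = 0.000884). Mdc1, a mediator of the DNA damage response, was higher at 0.73 ± 0.090 (adjusted p = 0.000982), again with a deposited ratio below 0. Among the lower genes Clic1, a chloride channel protein, read -0.68 on array 1 and -0.70 on array 2 (mean -0.69 ± 0.081, adjusted p = 0.000804), whereas both NOD arrays were above 0 (mean 0.25). The complement gene C2 read -3.93 on array 1 and -2.11 on array 2 (mean -3.02 ± 0.57, adjusted p = 0.00843), with a gap between arrays that ended its call without array 1 (adjusted p = 0.103 without array 1). Over all 40 MHC genes placed on chromosome 17, 6 were higher and 10 lower than B6, beside 14.8% and 16.8% of all genes. Against NOD, 5 were higher and 4 lower, beside 5.44% and 5.35% of all 8460 genes tested.

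**Figure D2:**
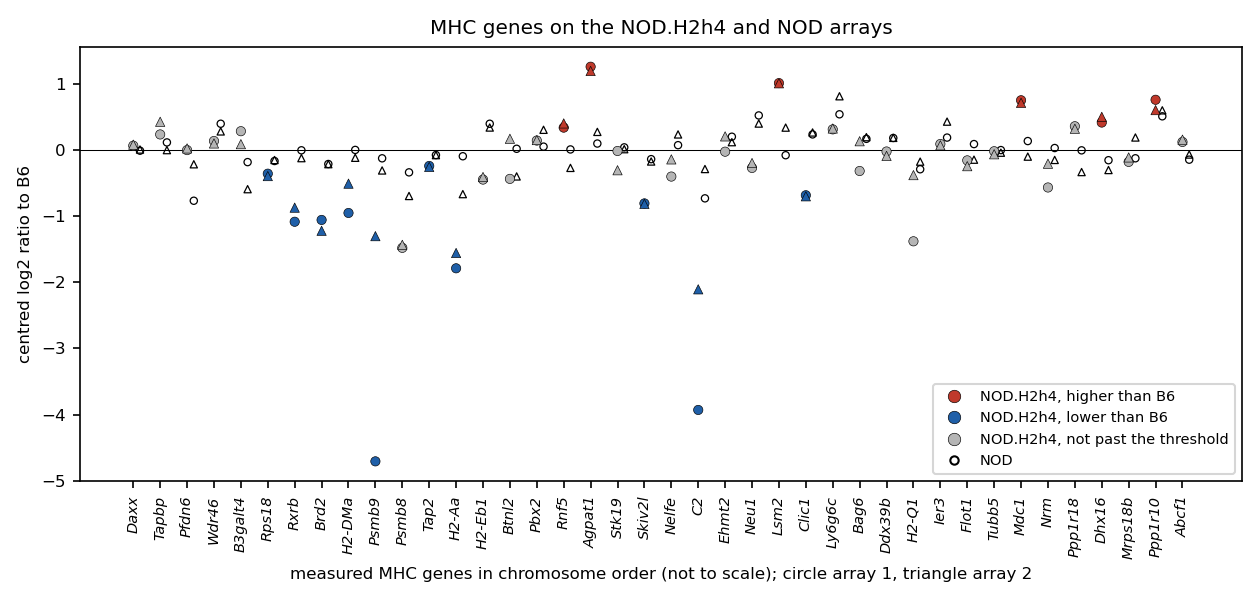
Centred log2 ratio to B6 (vertical axis) of the 40 measured MHC genes in the order of the RefSeq annotation, with distances not to scale. Filled symbols are the 2 NOD.H2h4 arrays, coloured by call, and open symbols the 2 NOD arrays. From Rps18 to H2-Eb1 every filled symbol lies below 0, while Agpat1 and Lsm2 stand near 1.

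Interferons raise the transcription of a common set of genes through response elements near their start sites, and among the 30 tested of 68 listed interferon-induced genes 10 were lower (33.3%, against 16.8% of all genes) and 3 were higher (10%, against 14.8%). The median was -0.285, against -0.131 over all genes. Without array 1 and without array 2, 6 were lower each time. The list shares Psmb9, Psmb8, Tap2, Psme1 and Tapbp with the class I list, so the counts are not separate. Ly6e, a membrane protein of lymphocytes, read -2.08 on array 1 and -2.04 on array 2 (mean -2.06 ± 0.12, adjusted p = 0.000142), and NOD T cells read nearly the same, with a mean of -1.87. Gbp2, a guanylate-binding protein that acts against intracellular pathogens, read -1.64 on array 1 and -1.995 on array 2 (mean -1.82 ± 0.14, adjusted p = 0.000322), whereas both NOD arrays were above 0 (mean 0.27), a difference of -2.09 ± 0.20 (adjusted p = 0.00379). Sp100, a component of nuclear bodies, read -1.41 on array 1 and -1.28 on array 2 (mean -1.35 ± 0.12, adjusted p = 0.000301) and was below the other T cell groups by -1.69 ± 0.13 (adjusted p = 0.000178).

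Higher members were Adar, which edits double-stranded RNA, at 0.91 ± 0.13 (adjusted p = 0.00178), Irf9, the DNA-binding part of the complex that carries the type I interferon signal, at 0.71 ± 0.074 (adjusted p = 0.000541), and the antiviral sensor Oas1a at 0.44 ± 0.097 (adjusted p = 0.0156). As deposited, Adar read -0.0029 on array 1 and 0.22 on array 2. Oas1a did not pass without array 2 (0.188), and Irf9 and Oas1a were below 0 as deposited. Transcription factor Irf1 and the interferon-induced Ifi35, both named after their values were seen, were lower: Irf1 read -1.12 on array 1 and -0.93 on array 2 (mean -1.03 ± 0.26, adjusted p = 0.0195) and did not pass with 1 array (adjusted p = 0.17 without array 1 and 0.105 without array 2), and Ifi35 read -0.65 on array 1 and -1.07 on array 2 (mean -0.86 ± 0.12, adjusted p = 0.00251).

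Promoter sequence was read from RefSeq windows (GRCm38.p6) of 250 bases before to 50 after each start site, searched on both strands for the interferon-stimulated response element, searched as TTTC, any 2 bases and TTTC, and the gamma-activated site, searched as TTC, any 3 bases and GAA. The first was found for 11 of the 26 tested interferon-induced genes with a window (42.3%), against 3.71% of all genes tested with a window and 3.44% of all windows, and the second for 12 of 26 (46.2%), against 8.11% and 8.3%. Of the 7 lower members with a window 3 had the first motif and 3 the second, and of the 16 members not past the threshold 7 had the first and 7 the second. Carrying a motif thus did not separate the lower members from the rest of the list. The sequences below, 5′ to 3′ on the strand of the gene with the motif in capitals, show where the element lies in lower members. Gbp2 (chr3:142620413-142620662, plus strand) and Irf1 (chr11:53769764-53770013, plus strand) are given as the 250 bases before the start, with the match beginning 59 and 90 bases before it. Psme1 (chr14:55578493-55578522, plus strand) and Ifi35 (chr11:101448409-101448438, plus strand) are given as 30 bases around a match that begins 9 and 7 bases after the start. A match is a description of the sequence and not a shown binding site.
Gbp2: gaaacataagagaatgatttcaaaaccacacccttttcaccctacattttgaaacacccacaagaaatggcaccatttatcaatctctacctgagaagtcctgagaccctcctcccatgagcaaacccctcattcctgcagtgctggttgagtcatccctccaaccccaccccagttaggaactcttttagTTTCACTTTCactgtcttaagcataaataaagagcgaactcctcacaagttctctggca
Irf1: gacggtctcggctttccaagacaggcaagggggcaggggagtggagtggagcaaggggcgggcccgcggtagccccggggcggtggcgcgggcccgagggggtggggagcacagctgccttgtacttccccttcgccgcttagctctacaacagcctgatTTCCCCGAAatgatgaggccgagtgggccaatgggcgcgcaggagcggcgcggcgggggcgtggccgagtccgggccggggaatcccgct
Psme1: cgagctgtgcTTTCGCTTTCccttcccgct
Ifi35: agaagcagaaTTCACAGAAatgaaagtgga

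Proteasome subunits, which form the barrel and caps of the particle that degrades ubiquitin-tagged proteins, were lower more often than higher. All 35 listed were tested, 13 were lower (37.1%, against 16.8% of all genes) and 3 higher (8.57%, against 14.8%), with a median of -0.386 against -0.131. The list shares Psmb8 and Psmb9 with the class I and interferon lists, so these counts are not separate either. With either array left out fewer subunits passed. Their lower share stayed above that of all genes in the same fit without array 1, but was near it without array 2. Psma2, an alpha ring subunit, read -0.99 on array 1 and -1.22 on array 2 (mean -1.10 ± 0.12, adjusted p = 0.000538), against a mean of 0.04 in NOD. Psmb7, a catalytic beta subunit, read -0.67 on array 1 and -0.77 on array 2 (mean -0.72 ± 0.12, adjusted p = 0.00328), and Psmb4, another beta ring subunit, -0.52 on array 1 and -0.57 on array 2 (mean -0.55 ± 0.0996, adjusted p = 0.00519). Neither passed without array 2 (adjusted p = 0.0525 and 0.0685), nor did Psmb4 without array 1 (0.052). The alpha ring subunit Psma3 was higher at 0.47 ± 0.073 (adjusted p = 0.00253), though its deposited ratio was below 0. Against the other 4 T cell groups, 14 of 32 tested subunits were lower (43.8%, against 13.6% of all genes) and 1 was higher, with Psma2 different by -1.14 ± 0.13 (adjusted p = 0.000676) and Psmb7 by -1.23 ± 0.13 (adjusted p = 0.000537). Psma2 was as low in B6.NODIdd1,5 (mean -1.12) as in NOD.H2h4, so its difference came from the other 3 groups. The subunits' medians were 0.0216 in NOD, -0.0708 in B6.NODIdd1,5, 0.297 in NODtoB6 and 0.656 in B6toNOD, highest in both marrow groups. Against NOD, 3 of 35 were lower and none was higher by limma, where 5.35% of all 8460 genes tested were lower and 5.44% higher.

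**Figure D3:**
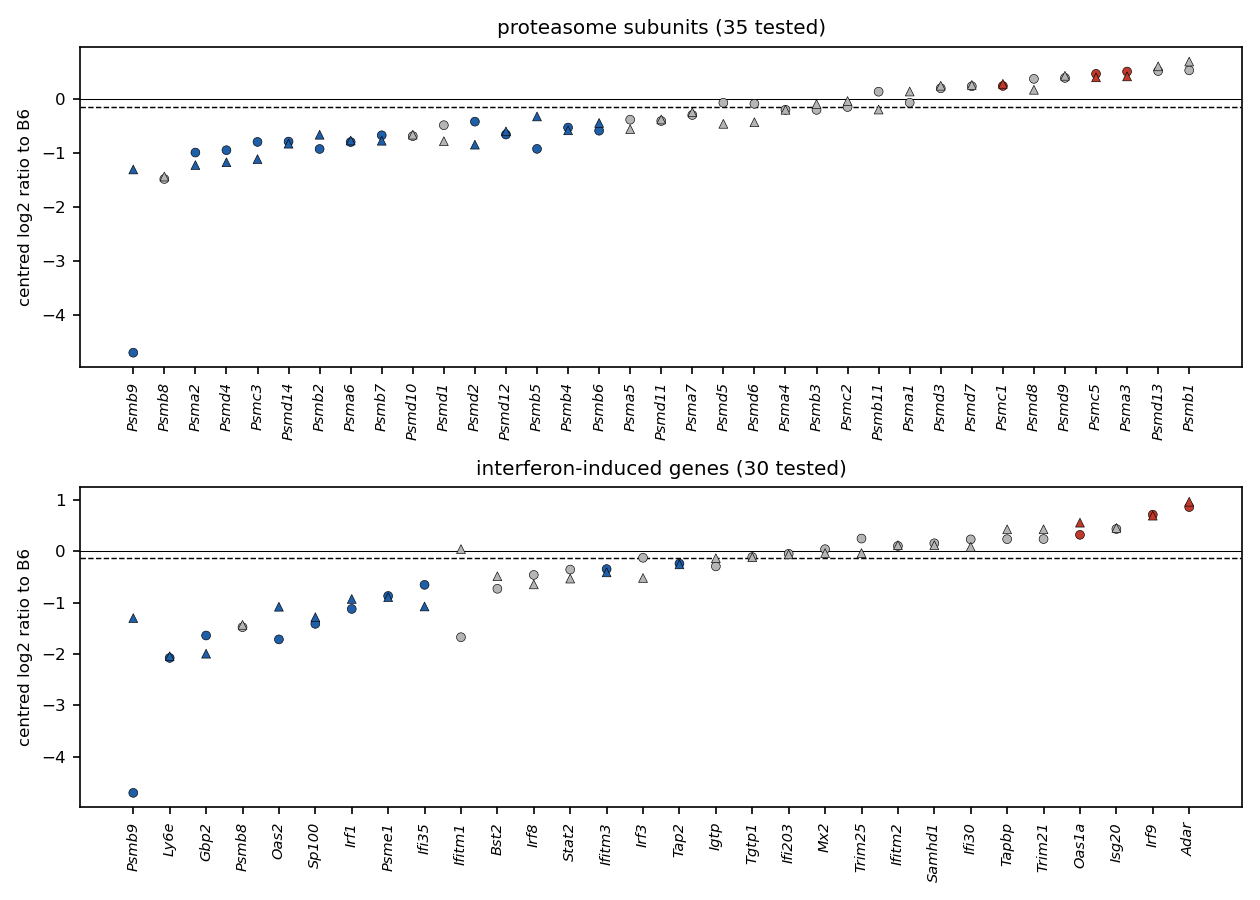
Centred log2 ratio to B6 of each tested proteasome subunit (upper panel) and interferon-induced gene (lower panel), ordered by mean, with circles for array 1, triangles for array 2, red for higher, blue for lower and grey for not past the threshold. The dashed line is the median of all genes tested, -0.131, and 13 of 35 subunits and 10 of 30 interferon-induced genes are blue, where 16.8% of all genes were lower.

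Heat shock proteins and chaperones, which fold new and damaged proteins, included 11 lower and no higher genes among 31 tested (35.5% lower, against 16.8% of all genes, and a median of -0.293 against -0.131), with 4 lower without array 1, and 5 lower and 1 higher without array 2. Cct3, a subunit of the chaperonin that folds actin and tubulin, read -0.79 on array 1 and -0.79 on array 2 (mean -0.79 ± 0.082, adjusted p = 0.000515), the mean of 5 probes. Hspa8, the constitutive cytosolic Hsp70, read -0.56 on array 1 and -0.56 on array 2 from 4 probes (mean -0.56 ± 0.072, adjusted p = 0.00119). Mitochondrial Hspd1 was lower on both arrays with a wide gap, -1.81 on array 1 and -0.71 on array 2 (mean -1.26 ± 0.21, adjusted p = 0.004). Its 3 probes disagreed, with means from -4.12 to 0.62 and 1 probe above 0 on both arrays. Cct3, Hspa8 and Hspd1 were below 0 in NOD too, with means of -0.60, -0.80 and -0.77. Dnajb11, a co-chaperone of the endoplasmic reticulum, read -0.70 on array 1 and -0.93 on array 2 (mean -0.81 ± 0.14, adjusted p = 0.0038) and did not pass without array 2. Its means were 0.20 in NOD, -1.28 in B6.NODIdd1,5, 0.41 in NODtoB6 and 0.52 in B6toNOD.

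T cell identity and signalling genes were called at about the rate of all genes. Of 6 tested identity genes 1 was higher and 1 lower (16.7% each, against 14.8% and 16.8% of all genes). Bcl11b, a transcription factor that keeps T cells committed, was higher at 0.81 ± 0.14 (adjusted p = 0.00803), and Gata3, needed for CD4 and T helper development, lower at -0.69 ± 0.18 (adjusted p = 0.0254). As deposited, Bcl11b read -0.16 on array 1 and 0.16 on array 2. Bcl11b did not pass with 1 array (adjusted p = 0.0513 without array 1 and 0.0929 without array 2), and Gata3 did not without array 1 (0.333). Both probes of Gata3 differed in sign, at -1.64 and 0.26, so its call rests on 1 of them. Of 12 tested genes of T cell receptor signalling 2 were lower (16.7%) and none was higher by limma. They were the adaptor Lcp2, also called SLP-76, at -0.61 ± 0.18 (adjusted p = 0.0358), and the inhibitory phosphatase Ptpn6, also called SHP-1, at -0.41 ± 0.089 (adjusted p = 0.0108). Neither passed with 1 array (Lcp2 0.185 and 0.215, Ptpn6 0.113 and 0.0821, without array 1 and 2).

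Among 7 tested costimulatory receptors and their adaptors 2 were higher and 2 lower (28.6% each, against 14.8% and 16.8% of all genes). Cd200, an inhibitory ligand, read 2.05 on array 1 and 2.03 on array 2 (mean 2.04 ± 0.075, adjusted p = 6.68e-05), a 4.11-fold difference, and was higher still in NOD (mean 3.65), so that NOD.H2h4 minus NOD was -1.61 ± 0.11 (adjusted p = 0.00197). Cd28, which gives the costimulatory signal for naive T cell activation and lies in the Idd5 interval, read -0.53 on array 1 and -0.63 on array 2 (mean -0.58 ± 0.10, adjusted p = 0.00516) and did not pass without array 2 (0.0738). In NOD it lay on the other side of B6, with a mean of 0.59, and the strains differed by -1.17 ± 0.15 (adjusted p = 0.00564). In B6.NODIdd1,5 Cd28 was lower than in NOD.H2h4, at a mean of -1.37, and its means were 0.61 in NODtoB6 and 0.17 in B6toNOD. Icos read -0.30 on array 1 and -1.34 on array 2 without passing (adjusted p = 0.342), and Ctla4 had no tested value. The B6toNOD arrays of Icos, which enter the pooled spread, read 2.87 and -0.30. Sh2d1a, the adaptor SAP that T cells need to help B cells, read -0.93 on array 1 and -1.54 on array 2 (mean -1.23 ± 0.17, adjusted p = 0.00148). Tnfrsf9, or 4-1BB, was higher at 0.62 ± 0.12 (adjusted p = 0.00651), below 0 as deposited, and did not pass with 1 array (0.0616 without array 1 and 0.0749 without array 2).

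Homing and survival receptors had 5 higher and no lower members among 11 tested (45.5% higher, against 14.8% of all genes), 2 higher with either array left out, but with uncentred values 0 were higher and 6 lower. Ccr7, which guides naive T cells into lymph nodes, read 0.84 on array 1 and 0.79 on array 2 (mean 0.82 ± 0.098, adjusted p = 0.0015), and Il4ra, the interleukin 4 receptor chain, 0.83 on array 1 and 0.76 on array 2 (mean 0.79 ± 0.083, adjusted p = 0.000515). As deposited, Il4ra was just below 0, and Ccr7 read -0.022 on array 1 and 0.036 on array 2.

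Jund, a member of the AP-1 transcription factor family, was among the lowest genes of all, with -4.85 on array 1 and -4.46 on array 2 (mean -4.66 ± 0.39, adjusted p = 0.000441), against a mean of -0.91 in NOD. In the list of AP-1 and immediate-early genes 7 of 22 tested were lower (31.8%, against 16.8% of all genes) and 2 higher (9.09%, against 14.8%), and 3 and 4 were lower without array 1 and 2. Atf4, which drives the response to amino acid shortage, read -0.95 on array 1 and -0.98 on array 2 (mean -0.96 ± 0.10, adjusted p = 0.000575). The antiproliferative gene Btg1 read -0.94 on array 1 and -0.96 on array 2 (mean -0.95 ± 0.085, adjusted p = 0.000306), while NOD was above B6 at a mean of 0.41, a difference of -1.36 ± 0.12 (adjusted p = 0.00277). Btg1 means were -1.24 in B6.NODIdd1,5, 0.19 in NODtoB6 and -0.21 in B6toNOD. Dusp1, a phosphatase that switches off MAP kinases, was higher, with 0.89 on array 1 and 0.92 on array 2 (mean 0.91 ± 0.078, adjusted p = 0.000279).

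Genes of NF-kappaB and its feedback included 5 higher (38.5%, against 14.8% of all genes) and 2 lower (15.4%, against 16.8%) among 13 tested, and 3 higher and 1 lower with either array left out. With uncentred values 1 was higher and 7 lower. Nfkbia, the inhibitor I-kappaB alpha and itself a target of NF-kappaB, read 1.52 on array 1 and 1.58 on array 2 (mean 1.55 ± 0.084, adjusted p = 0.000121). It exceeded NOD by 1.16 ± 0.12 (adjusted p = 0.00357) and the other T cell groups by 1.81 ± 0.090 (adjusted p = 9.48e-05), of which B6.NODIdd1,5 was the lowest at a mean of -2.15. Rela, the p65 subunit, was higher at 0.73 ± 0.074 (adjusted p = 0.000479), and Tnip1, which restrains the pathway, at 0.62 ± 0.084 (adjusted p = 0.0016), both below 0 as deposited. Lower were the adaptor Traf1, at -0.79 ± 0.092 (adjusted p = 0.00444), and Map3k14, the kinase NIK of the noncanonical pathway, at -0.60 ± 0.10 (adjusted p = 0.00387). Traf1 did not pass without array 2 (0.0589), and Map3k14 did not without array 1 (0.0614).

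Of 39 tested DNA replication genes 9 were lower (23.1%, against 16.8% of all genes) and 2 higher (5.13%, against 14.8%), with a median of -0.354. Their lower share was near that of all genes in the same fit without array 1 and above it without array 2. Mcm3, a subunit of the replicative helicase, read -1.82 on array 1 and -1.60 on array 2 (mean -1.71 ± 0.19, adjusted p = 0.00111), against 0.01 in NOD, and the polymerase clamp Pcna read -0.71 on array 1 and -1.18 on array 2 (mean -0.95 ± 0.13, adjusted p = 0.0018). Rfc1, the large subunit of the clamp loader, was higher at 0.48 ± 0.071 (adjusted p = 0.00215), below 0 as deposited. Mitosis genes were lower at a similar share, 10 (23.3%) of 43 tested, but 7 were higher (16.3%), near the 14.8% of all genes. With either array left out, their lower share fell below that of all genes in the same fit, and their higher share stayed above it. Ube2c, the ubiquitin-conjugating enzyme of the anaphase-promoting complex, read 1.17 on array 1 and 1.22 on array 2 (mean 1.19 ± 0.11, adjusted p = 0.000394). Kif2c, a kinesin that takes microtubules apart, was higher at 1.07 ± 0.11 (adjusted p = 0.000458), as were Prc1, which bundles spindle microtubules, at 0.83 ± 0.093 (adjusted p = 0.000683), and the phosphatase Cdc25c at 0.73 ± 0.078 (adjusted p = 0.000568), the last below 0 as deposited. Prc1 read -0.0145 on array 1 and 0.0635 on array 2 as deposited. Cks2, a partner of cyclin-dependent kinases, was lower at -0.65 ± 0.084 (adjusted p = 0.00128).

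Nuclear genes of oxidative phosphorylation were called at about the background rate, 9 higher (15%) and 10 lower (16.7%) of 60 tested, but single members stood far apart. Without array 1 and 2, 5 and 4 were higher and 5 and 7 lower. Atp5a1, the alpha subunit of the ATP synthase, read -1.35 on array 1 and -1.61 on array 2 (mean -1.48 ± 0.093, adjusted p = 0.000145), Ndufv1 of complex I -1.20 on array 1 and -1.58 on array 2 (mean -1.39 ± 0.13, adjusted p = 0.000394), and Sdhd of complex II -1.24 on array 1 and -1.41 on array 2 (mean -1.32 ± 0.097, adjusted p = 0.00017). In B6.NODIdd1,5 the means of Atp5a1, Ndufv1 and Sdhd were -0.93, -1.55 and -1.29, whereas in both marrow groups their means were above 0. Opposite to these genes, Ndufa2 of complex I read 1.46 on array 1 and 1.58 on array 2 (mean 1.52 ± 0.11, adjusted p = 0.000575) and Atp5j2 of the ATP synthase 0.93 on array 1 and 0.95 on array 2 (mean 0.94 ± 0.076, adjusted p = 0.000223). Relative to the other T cell groups 19 of 56 were lower (33.9%, against 13.6% of all genes) and 3 higher (5.36%, against 13.3%), and Atp5a1 differed there by -1.72 ± 0.0996 (adjusted p = 9.56e-05). The list's medians were 0.0594 in NOD, -0.143 in B6.NODIdd1,5, 0.268 in NODtoB6 and 0.662 in B6toNOD, beside -0.11 in NOD.H2h4, so the marrow groups lay furthest from NOD.H2h4. Ribosomal protein genes, all 70 listed, had 24 lower (34.3%, against 16.8% of all genes) and 12 higher (17.1%, against 14.8%), with a median of -0.0737 that lies above the -0.131 of all genes. Their lower count was 12 and 11 and their higher count 4 and 3 without array 1 and 2.

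**Figure D4:**
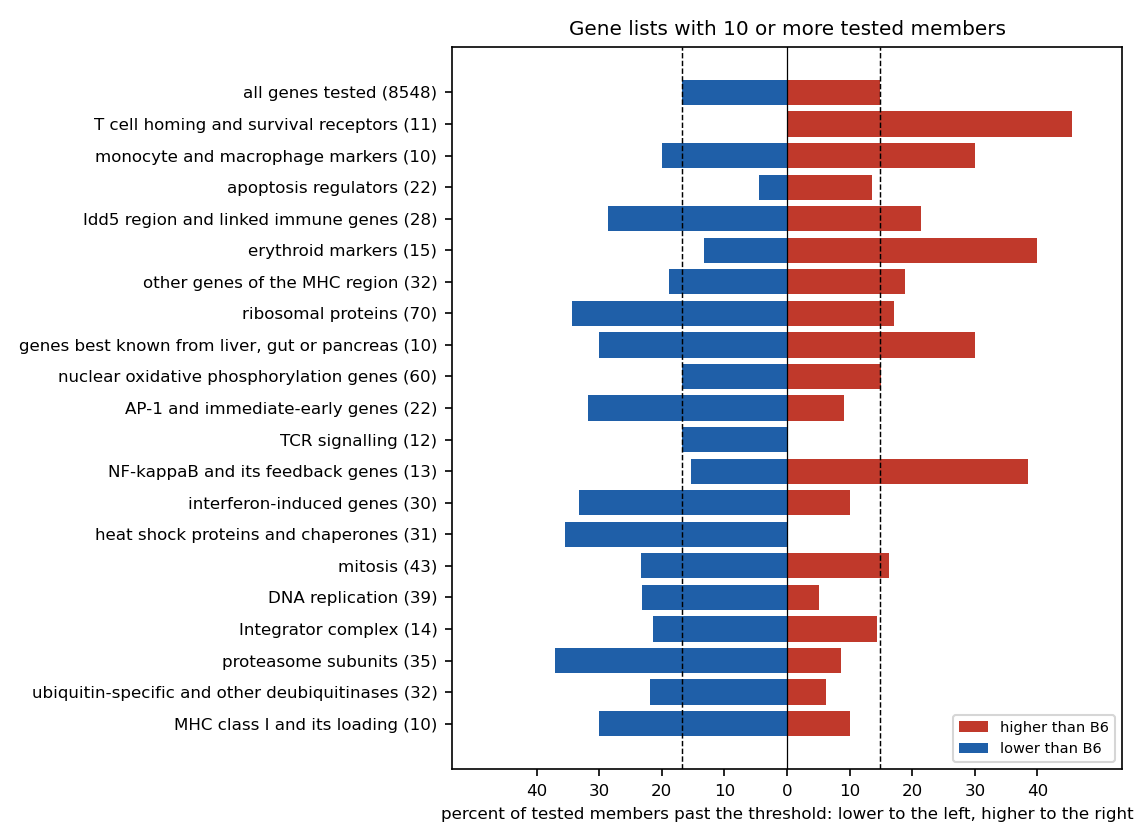
Percent of tested members called higher (red, to the right) or lower (blue, to the left) than B6, for each list with 10 or more tested members (number in brackets), ordered by median, with all genes tested at the top. The dashed lines mark 14.8% higher and 16.8% lower over all genes. Proteasome subunits reach 37.1% lower and homing receptors 45.5% higher.

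Genes of the diabetes loci outside the MHC showed no common direction. Of 28 tested genes in the list of the Idd5 region and linked immune genes 6 were higher (21.4%, against 14.8% of all genes) and 8 lower (28.6%, against 16.8%). With either array left out, both shares were near those of all genes in the same fit. The transcription factor Creb1 read 1.26 on array 1 and 1.26 on array 2 (mean 1.26 ± 0.12, adjusted p = 0.00243), and Pikfyve, a kinase that makes the endosomal lipid PI(3,5)P2, 1.35 on array 1 and 1.20 on array 2 (mean 1.28 ± 0.11, adjusted p = 0.000804). NOD means were 0.32 and -0.05. Of 8 tested candidate genes of other Idd loci 2 were higher and 2 lower (25% each, against 14.8% and 16.8% of all genes), and no call held with either array left out. Tyk2, a kinase of interferon and interleukin 12 receptors, read -2.24 on array 1 and -2.71 on array 2 (mean -2.47 ± 0.70, adjusted p = 0.037), and 0.166 and 0.241 were its adjusted p-values without array 1 and 2.

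Markers of other spleen cells also differed from B6. S100a9, a calcium-binding protein of neutrophils, was the highest of all genes at 2.33 on array 1 and 2.34 on array 2 (mean 2.33 ± 0.12, adjusted p = 0.000121), and Lcn2, a neutrophil granule protein that binds siderophores, read 2.04 on array 1 and 2.08 on array 2 (mean 2.06 ± 0.25, adjusted p = 0.000922). NOD was above B6 for both, with means of 2.16 and 1.10, and for Lcn2 NOD.H2h4 minus NOD was 0.96 ± 0.35 (adjusted p = 0.13). The means of S100a9 and Lcn2 were 3.04 and 2.94 in NODtoB6, 6.65 and 5.70 in B6toNOD, and -1.23 and -1.20 in B6.NODIdd1,5. Against the other 4 T cell groups neither passed, with differences of -0.32 ± 0.14 and -0.078 ± 0.27. Among 8 tested neutrophil genes 4 were higher (50%, against 14.8% of all genes) and 2 lower (25%, against 16.8%), the lower ones being lysozyme, Lyz2, at -0.62 ± 0.096 (adjusted p = 0.00253), and annexin, Anxa1, at -1.14 ± 0.18 (adjusted p = 0.00288), and the growth factor receptor Csf3r was higher at 0.87 ± 0.075 (adjusted p = 0.000277). The list's genes therefore did not move together. Of 15 tested erythroid genes 6 were higher (40%, against 14.8% of all genes) and 2 lower (13.3%, against 16.8%), with fewer higher when either array was left out. Hbb-b1, adult beta globin, read 1.84 on array 1 and 1.88 on array 2 (mean 1.86 ± 0.13, adjusted p = 0.000145), below NOD by -1.45 ± 0.18 (adjusted p = 0.00564), Hbb-y, embryonic globin, was higher at 0.72 ± 0.10 (adjusted p = 0.00184), below 0 as deposited, and Cpox, an enzyme of haem synthesis, at 0.93 ± 0.10 (adjusted p = 0.000625). Probes of the globin genes can bind each other's RNA.

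Of the B cell genes Cd24a, also made by erythroid and immature cells, read -0.86 on array 1 and -0.85 on array 2 (mean -0.86 ± 0.10, adjusted p = 0.000931) from 3 probes. The B cell signalling genes Bank1, at -1.57 ± 0.34 (adjusted p = 0.0191), and Blk, at -1.44 ± 0.39 (adjusted p = 0.0325), were lower, but Bank1 did not pass with 1 array (0.0916 and 0.17 without array 1 and 2) and Blk did not without array 2 (0.34). Btk, a B cell and myeloid kinase, went the other way, with 1.92 on array 1 and 2.31 on array 2 (mean 2.11 ± 0.14, adjusted p = 0.00022). Of 10 tested monocyte and macrophage genes 3 were higher (30%) and 2 lower (20%), beside 14.8% and 16.8% of all genes. Cd163, a macrophage receptor for haemoglobin, read 1.73 on array 1 and 1.87 on array 2 (mean 1.80 ± 0.13, adjusted p = 0.000479), whereas the Fc receptor Fcgr3 and the complement gene C1qc were lower, at -0.81 and -0.74. Neither of these lower calls passed without array 2, and they did not both pass without array 1. Of 4 tested NK and cytotoxic genes 1 was lower (25%, against 16.8% of all genes), the NK cell receptor Ncr1 at -1.03 ± 0.12 (adjusted p = 0.000804), and 3 did not pass, with a list median of 0.047. Plasma cell genes (5 tested) held no call by limma at either side. The part of other cells in the T cell results above was not tested.

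The remaining genes with the highest ratios were the amino acid transporter Slc38a9, with 2.04 on array 1 and 2.09 on array 2 (mean 2.07 ± 0.28, adjusted p = 0.00247), the transcription factors Rfx7, at 2.001 ± 0.20 (adjusted p = 0.000713), and Nr2f2, at 1.87 ± 0.088 (adjusted p = 0.000105), and the membrane magnesium transporter Mmgt1, at 1.73 ± 0.093 (adjusted p = 0.000145). The lowest called gene was Ints8, a subunit of the Integrator complex that processes small nuclear RNAs, with -5.93 on array 1 and -4.36 on array 2 (mean -5.14 ± 0.68, adjusted p = 0.00136), or 35.3-fold below B6. Integrator subunits were called at about the rate of all genes, 3 lower (21.4%, against 16.8%) and 2 higher (14.3%, against 14.8%) of 14 tested. Ints5 was lower at -1.31 ± 0.21 (adjusted p = 0.00277) and Ints7 higher at 1.09 ± 0.071 (adjusted p = 0.000145). Sepsecs, which makes selenocysteine on its tRNA, read -3.61 on array 1 and -3.36 on array 2 (mean -3.48 ± 0.23, adjusted p = 0.000145), and asparaginase, Aspg, -4.19 on array 1 and -3.49 on array 2 (mean -3.84 ± 0.25, adjusted p = 0.00019). The liver transporter Slco1b2 was lower at -4.02 ± 0.49 (adjusted p = 0.00159), with a wide gap, -2.91 on array 1 and -5.13 on array 2. So was the ephrin Efnb1, at -4.02 ± 0.75 (adjusted p = 0.0298), with -2.62 on array 1 and -5.41 on array 2. The neuronal leucine-rich repeat gene Lrrn1 was lower at -3.13 ± 0.26 (adjusted p = 0.000724). Every gene named in this paragraph apart from Ints5 and Ints7 was read from 1 probe.

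Genes with several probes show whether their probes agree. This is no independent check, since a call rests on the mean of the same probes. Of 2961 genes with values for more than 1 probe, 410 had all probes above 0 on both arrays and 672 had all below 0. Of the 807 called genes among them, 544 (67.4%) had all their probes on the called side on both arrays. The lower genes Cog4, a Golgi tethering subunit, with -2.55 on array 1 and -2.69 on array 2 (mean -2.62 ± 0.24, adjusted p = 0.000322), and Noct, a circadian deadenylase-related protein, with -2.27 on array 1 and -2.29 on array 2 (mean -2.28 ± 0.30, adjusted p = 0.00133), were of this kind. So were the respiratory chain assembly gene Cox7a2l, at -1.59 ± 0.077 (adjusted p = 0.000111), and the glycosyltransferase Galnt10, at -1.81 ± 0.24 (adjusted p = 0.00139).

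Set against the mean of the other 4 spleen T cell groups, 923 of 6960 tested genes were higher (13.3%) and 946 lower (13.6%) in NOD.H2h4, 26.9% in all, counts that fell to 397 and 441 without array 1 and to 414 and 433 without array 2. Hoxb3, a homeobox gene, read 1.35 on array 1 and 1.15 on array 2 in NOD.H2h4 and had means of 0.08 in NOD, -1.36 in B6.NODIdd1,5, -1.01 in NODtoB6 and -0.67 in B6toNOD, a difference of 1.99 ± 0.092 (adjusted p = 9.48e-05). No array of the other groups reached its values. Cdc25c differed by 1.17 ± 0.082 (adjusted p = 0.000143) and Agpat1 by 1.33 ± 0.10 (adjusted p = 0.000172), although Agpat1 was as high in B6toNOD (mean 1.48) and NODtoB6 lay furthest below it, at a mean of -2.44. On the lower side Ints8 differed by -5.70 ± 0.75 (adjusted p = 0.00148), with NODtoB6 the highest group at a mean of 4.06. Ltc4s, which makes leukotriene C4, differed by -3.43 ± 0.27 (adjusted p = 0.000204), with -1.85 on array 1 and -3.06 on array 2 against a mean of 2.86 in B6toNOD. Ppp1r2, an inhibitor of protein phosphatase 1, differed by -2.71 ± 0.22 (adjusted p = 0.000213), with B6.NODIdd1,5 the highest group at a mean of 1.92. Its 2 probes had NOD.H2h4 means of -3.54 and -0.097, so its low value rests mainly on 1 of them. Mpp5, a cell polarity protein, differed by -2.63 ± 0.30 (adjusted p = 0.000839). Clic1 was lower than these groups by -1.31 ± 0.086 (adjusted p = 0.000128), but B6.NODIdd1,5 read about the same as NOD.H2h4 (mean -0.70), so the difference came from the other 3 groups. The labels of NODtoB6 and B6toNOD name no dyes, and these arrays were assumed to run the same way as the strain arrays.

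**Figure D5:**
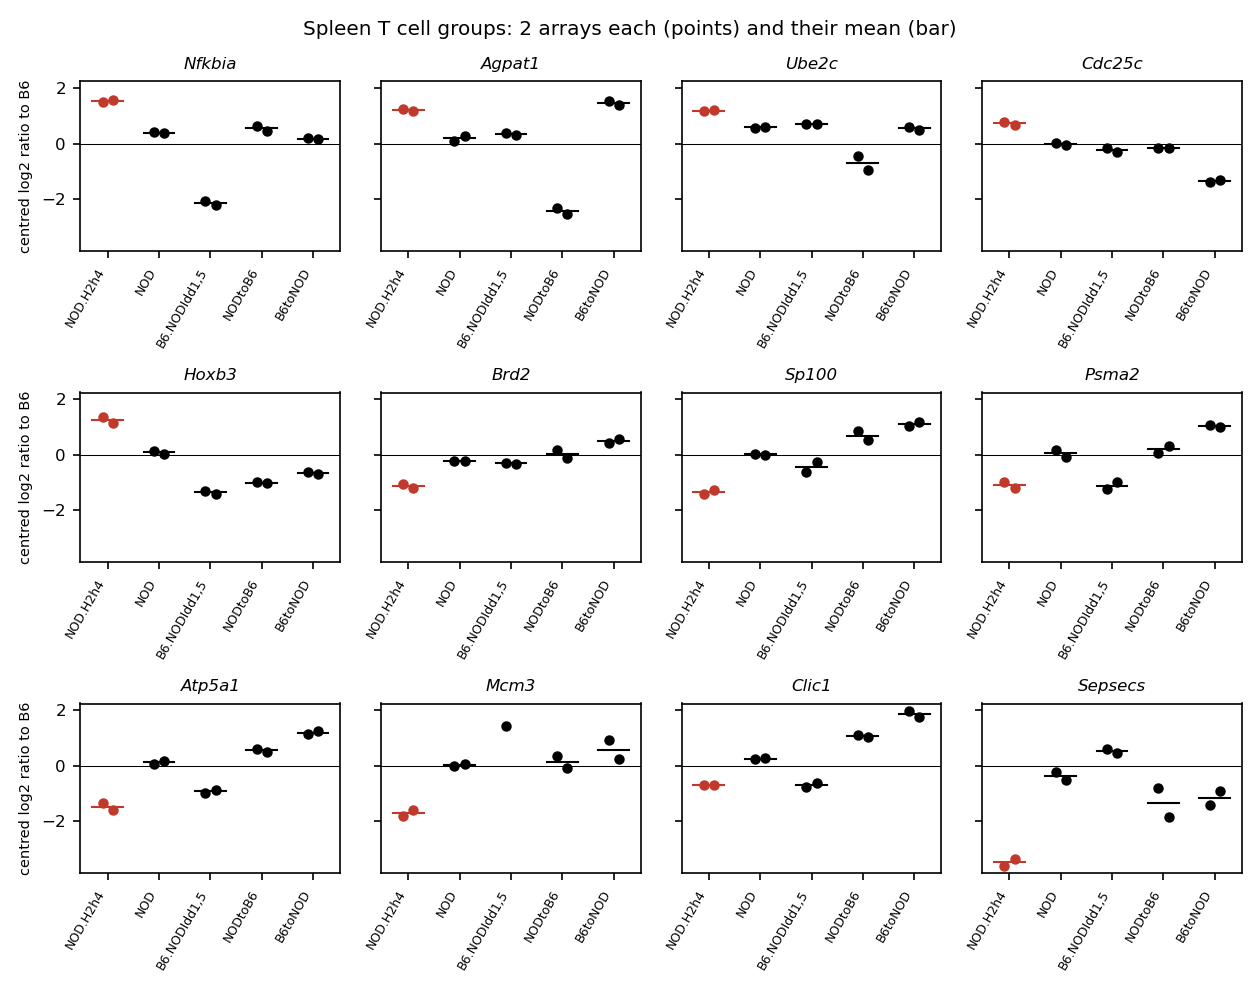
Centred log2 ratio to B6 of 12 genes in the 5 spleen T cell groups, with 1 point an array and a bar at the mean of both (Mcm3 in B6.NODIdd1,5 has 1 value and no bar). NOD.H2h4 (red) lies above every other array for Nfkbia, Ube2c, Cdc25c and Hoxb3 and below every other array for Brd2, Sp100, Atp5a1, Mcm3 and Sepsecs.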

How the data were processed

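Spleen T cell RNA of NOD.H2h4 mice was read against B6 spleen T cell RNA on 2 cDNA arrays with 2 colours, per the labels. The values deposited by the authors are log2 ratios of the experimental to the B6 channel, and the sources used here do not give the tools, background correction or any normalisation behind them. The scale and direction were taken from the values and from the dyes in the labels (Cy5 for NOD.H2h4). Array medians differ, so no centring between arrays is visible. No array exchanges the dyes, so a dye effect on a single gene is not removed from the ratio to B6, and the test against 0 leaves out the spread of B6 itself.

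The code 16.60964, held by 8 and 13 probes of the 2 arrays, was treated as missing. Each array was centred on its median, and probes with exactly 1 symbol (13033, with 312 carrying several and 7391 none) were averaged per gene, with symbols updated through RefSeq identifiers for 12850. All 12 arrays were fitted as 6 group means with limma 3.58.1 in R 4.3.3 (linear model per gene and eBayes, 6 residual degrees of freedom, prior 1.58), which leaves genes without a value on an array of the compared groups untested, and p-values were adjusted by Benjamini-Hochberg over all genes tested. Contrasts were NOD.H2h4 against 0, NOD.H2h4 minus NOD, and NOD.H2h4 minus the mean of the other 4 spleen T cell groups. The fit was tested on simulated data. The number of arrays limits the precision.

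Genes were named where they were among the 15 highest or 15 lowest past the threshold with both arrays on 1 side and an SD under 0.5 of the mean's size, among the 4 smallest adjusted p-values of a list in each direction, among H2-Aa, H2-Ab1, H2-Eb1, Cd28, Icos and Ctla4, among the 10 largest differences in each direction from the other T cell groups, or among 10 called genes whose probes all lay on the called side. From these a readable part was taken. The comparison, the 31 gene lists and the members named were chosen with earlier results of these data known. Alternatives were other centrings, a running median of 501 probes, scaling, the median of probes, unnamed probes kept, other sets of arrays, a replicate block, a robust prior, the missing code kept and each array left out.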

Additional observations from a re-analysis of the deposited data

Results flagged for a closer look

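Of the 105 genes considered for the text, 62 differed between NOD.H2h4 and NOD T cells by the test of the difference itself (limma, adjusted p under 0.05). These genes were chosen on the same NOD.H2h4 arrays that enter the difference, so their share is not to be read against the 10.8% called among all 8460 genes tested. The values are log2 differences, NOD.H2h4 minus NOD, each from 2 arrays a strain. Over all genes 460 were higher and 453 lower, and these counts ranged from 86 to 713 and from 102 to 769 when 1 array of any group was left out. Both strains were read against B6, and the sources used here do not give whether it was the same B6 RNA.

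NOD.H2h4 was lower for the MHC and class I genes Brd2 -0.93, Rxrb -0.91, Psme1 -0.68 and Clic1 -0.94 and higher for Agpat1 1.04, Lsm2 0.88, Mdc1 0.72 and Rnf5 0.50. It was lower for the interferon-induced genes Gbp2 -2.09, Sp100 -1.36 and Ifi35 -0.78 and for the proteasome and chaperone genes Psma2 -1.15, Psmb7 -0.70, Psmb4 -0.70 and Dnajb11 -1.01. Signalling and activation genes were lower for Cd28 -1.17, Cd200 -1.61, Jund -3.75, Atf4 -0.86, Btg1 -1.36, Traf1 -0.76 and Map3k14 -0.60 and higher for Dusp1 0.52, Nfkbia 1.16, Creb1 0.94 and Pikfyve 1.32.

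Cell cycle genes were lower for Mcm3 -1.72, Cks2 -0.66 and Kif2c -0.64 and higher for Cdc25c 0.74 and Prc1 0.62. Respiratory genes were lower for Atp5a1 -1.60, Ndufv1 -1.001, Sdhd -1.36 and Cox7a2l -1.15 and higher for Ndufa2 1.51 and Atp5j2 0.77. Markers of other cells were lower for Cd24a -1.39, Lyz2 -1.22, Anxa1 -2.39, Hbb-b1 -1.45, Hbb-y -1.28 and Ncr1 -0.83 and higher for Btk 1.52, Cd163 1.44, Csf3r 0.45 and Cpox 0.60. Fcgr3, named above but not among the 105 genes, was also lower, by -0.92 (limma, adjusted p = 0.0275). The part of those cells in the other differences was not tested.

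The remaining genes were lower for Ints8 -4.34, Ints5 -1.17, Slco1b2 -3.33, Aspg -3.39, Sepsecs -3.11, Lrrn1 -2.07, Cog4 -2.04, Noct -1.69, Nr2f2 -1.65, Ltc4s -2.01 and Ppp1r2 -1.82 and higher for Rfx7 1.95, Mmgt1 1.19, Ints7 0.71 and Hoxb3 1.16. Groups of 2 arrays are too small for the check of single samples that stand apart, so none was made.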

How the results depend on the processing

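Centring decided the balance of higher and lower genes. With values as deposited, whose gene median was -0.939 against -0.131, 91 genes were higher and 6012 lower than B6, 199 higher and 2647 lower than the other T cell groups, and 26 higher and 2818 lower than NOD. Named genes that changed sign there were Calr (-0.22), Mdc1 (-0.074), Rnf5 (-0.44), Irf9 (-0.10), Psma3 (-0.33), Tnfrsf9 (-0.19), Il4ra (-0.014), Rela (-0.076), Tnip1 (-0.19), Rfc1 (-0.32), Cdc25c (-0.077), Hbb-y (-0.088), Eif2s3y (-0.13) and Oas1a (-0.37). Under the running median Oas1a was 0. Centring on genes, the running median and the median of probes kept the counts against B6 within 1.5 times. Centring on genes turned the balance, with 1510 higher and 1211 lower. Of the 2705 calls against B6, 2477 were kept with centring on genes, 1994 with the running median and 2657 with the median of probes. With the 2 NOD.H2h4 arrays alone 1807 were kept. Medians of successive parts of the probe order spanned 0.53 on array 1 and 0.45 on array 2. Scaled arrays gave 604 higher and 603 lower genes against the other T cell groups, and 274 higher against NOD. With the 10 spleen T cell arrays 272 were higher and 259 lower than NOD. The 8 strain arrays gave 2224 lower genes against B6, and 901 higher and 945 lower against NOD. Leaving out each array in turn gave 618 to 1516 higher and 655 to 1950 lower genes against B6, 397 to 1295 higher and 433 to 1295 lower against the other T cell groups, and 86 to 713 higher and 102 to 769 lower against NOD. The lowest counts against B6 came without an NOD.H2h4 array, where 1 array stood for the group, and the highest without a B6toNOD array. Of 102 called genes considered for the text, 80 passed in both fits without an NOD.H2h4 array. Same-numbered arrays did not deviate together (correlations of -0.0418 to 0.0227 over 15 pairs of groups), so the replicate number does not pair samples. With the replicate block 1220 genes were higher and 1362 lower than B6, 862 and 881 against the other groups, and 351 and 345 against NOD. The cause of these changes was not tested, apart from the fewer arrays by construction. Signal over background is not analysed here.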

Other observations

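Probes that carry no single gene symbol behaved unlike the named ones. Of 7292 such probes with a value on both NOD.H2h4 arrays, 2521 (34.6%) were higher and 853 (11.7%) lower than B6, with a median of 0.183 against -0.111 for the probes with 1 symbol. The sources used here do not give what these probes bind, and they entered the median on which each array was centred.

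Both sex-linked genes tested were higher than in B6. Xist, the RNA that silences an X chromosome in females, read 1.48 on array 1 and 1.45 on array 2 (mean 1.47 ± 0.32, adjusted p = 0.0123) and did not pass with 1 array (adjusted p = 0.103 without array 1 and 0.0978 without array 2). Eif2s3y, which lies on the Y chromosome, read 0.69 on array 1 and 0.67 on array 2 (mean 0.68 ± 0.10, adjusted p = 0.00256), with a ratio below 0 as deposited. The labels do not state the sex of the mice.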
